A study of Mus musculus with 53 samples.

Results

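The cells described here are labelled postmitotic granule neurons of the mouse cerebellum at postnatal day 7 (P7). That name is used for young neurons that have left the cell cycle and are leaving the external granule layer. The cells were picked by transcripts alone, from all barcodes with 1000 to 20000 transcripts (unique molecular identifiers, UMIs) and at least 500 genes. Position in the layer and exit from the cycle were not measured. A neuron had UMIs of 2 or more of the granule lineage genes Barhl1, Pax6, Neurod1 and Fat2, and of 2 or more of the postmitotic genes Rbfox3, Cntn2, Grin2b and Neurod2. It had UMIs of at most 1 of the cycling genes Top2a, Mki67, Cenpf, Aspm, Kif11 and Prc1, of at most 1 of the GABAergic genes Gad1, Gad2, Pax2 and Slc32a1, and of fewer than 2 of the muscle genes Ttn, Neb, Myh3, Actc1, Mybpc1 and Klhl41. The limits held 13365 of the 62348 cells in the depth window (21.4%).

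Granule neurons are the most numerous neurons of the brain. They come from Atoh1-expressing progenitors that divide in the external granule layer under Sonic hedgehog, then leave the cycle, extend parallel fibres and migrate inward past Purkinje cells, and they exchange early axon and migration genes for the receptors and channels of mature synapses. Insm1 is a zinc-finger repressor of newly committed neural and endocrine cells, and Tead1 and Tead2 are DNA-binding partners of the YAP coactivator.

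The data are 1 deposited single-cell sample of 10 libraries made by split-pool barcoding of fixed cells (Parse Evercode WT v3), with 1 cerebellum per library, no pooling and dissociation with papain. The library names give 2 Insm1 controls, 3 Insm1 mutants (Insm1cKO), 2 Tead1/2 controls and 3 Tead1/2 mutants (Tead1/2cKO). For the younger bulk samples of the series the labels spell the mutants as Atoh1Cre with homozygous floxed Insm1, or with homozygous floxed Tead1 and Tead2, and the controls as carriers of the floxed alleles without Cre. The title of the series puts the question as whether muscle fate is held down in the neural lineage. Library number 1 of each group holds all lobules, and numbers 2 and 3 lack lobules IX and X, so dissection and animal cannot be told apart within a group. Cre is driven from Atoh1, a gene of the progenitor, and no genotype is recorded per cell, so neurons without recombination are not marked in a mutant library.

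The libraries yielded 2491 and 1663 neurons in the Insm1 controls, 1504, 1351 and 628 in the Insm1 mutants, 1783 and 1397 in the Tead1/2 controls, and 963, 813 and 772 in the Tead1/2 mutants. Their summed depth was 4500506 to 15832839 UMIs per library, with medians of 4563 to 6884 UMIs per neuron and mitochondrial medians of 0.364% to 0.764%. No barcode was shared between libraries (0), and no library was a copy of another. Mixed doublets were scored with Scrublet, whose own threshold marked under 0.5% of cells in 4 libraries and so did not work there. In the other libraries it marked 11.7% to 36.0% of cells, the most in Insm1 control 1, so removal by it was uneven between libraries. The results given are for all neurons, with doublet removal as an alternative. By Xist and Ddx3y transcripts, 1 of 2 Insm1 controls and 2 of 3 Insm1 mutants were female, and 2 of 2 Tead1/2 controls and 1 of 3 Tead1/2 mutants, so sex runs largely with genotype in the Tead1/2 line. With sex as a term in the fit used below, the genes called in Tead1/2 mutants went from 2717 to 2123 and those in Insm1 mutants from 2392 to 2294.

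The genes of the rule describe the neurons and are not results. Rbfox3, the NeuN antigen, had a UMI in 89.6% to 95.1% of neurons in every library after each cell was thinned to 1000 UMIs. Pax6, Neurod1 and Cntn2 were read from each library (449 to 602, 458 to 853 and 422 to 938 CPM, counts scaled to one common total per library), but they are genes of the rule and do not test the label. Fat2, an atypical cadherin of granule cells, was read at 118 and 138 CPM in controls and 662, 792 and 761 CPM in mutants of the Insm1 line, at 121 and 155 CPM in the Tead1/2 controls and 867, 1175 and 1038 CPM in the Tead1/2 mutants. Because it counts towards the granule limit, more mutant than control neurons entered through Fat2. In the mutants 84.0% to 91.5% of neurons met that limit without it, against 95.1% to 97.0% in the controls. Just inside the limits, 4828 neurons had exactly 2 of the granule genes and 2886 exactly 2 of the postmitotic genes, while 1511 and 1929 cells with only 1 fell just outside. A further 11164 cells failed only the cycling limit, 852 only the GABAergic limit and 2130 only the muscle limit.

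Markers outside the rule were read for other cell types. Zic1, a granule lineage transcription factor that the rule did not use, was at 568 and 617 CPM in controls of the Insm1 line and 569.9, 566 and 602 CPM in its mutants, and at 489.9 and 509 CPM in controls of the Tead1/2 line and 395, 588 and 554 CPM in its mutants. Its groups overlapped in both lines, and neither Zic1 (FDR 0.911 and 0.89, edgeR, Benjamini-Hochberg adjusted) nor Zic2 (FDR 0.573 and 0.709) was called. Other granule markers outside the rule did change. Etv1 and Cbln1 were called higher and Nhlh1 lower in both lines, Nfix lower in Insm1 and Zic4 higher in Tead1/2 mutants. Defining markers of other classes were near the floor in the neurons: Pcp2 of Purkinje cells lay at 0 to 0.667 CPM, Olig2 of oligodendrocyte progenitors at 0.549 to 3.16 CPM and Cldn5 of endothelium at 0 to 2.29 CPM. Of the genes of interneurons, Gad1 lay at 0.360 to 3.64 CPM against 939 to 1282 CPM in the GABAergic cells of the same libraries. Over all genes tested, 15.9% were called in Insm1 mutants (9.72% higher and 6.14% lower) and 18% in Tead1/2 mutants (10.9% and 7.14%), the background for each list below. Of the astroglial list, 12 of 12 genes were tested, 2 were higher and 0 lower in Insm1 mutants, and 1 was higher and 2 lower in Tead1/2 mutants. Its Aqp4 was read at 28.8 to 164 CPM, and the summed level of the list was 855 and 1203 CPM in controls and 1270.4, 1422 and 1458 CPM in mutants of the Insm1 line, 807 and 865 CPM in the Tead1/2 controls and 814, 998 and 1006 CPM in the Tead1/2 mutants. The part of these astroglial transcripts in the results was not tested.

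Of the unipolar brush cell list 8 genes were tested, with 3 higher and 1 lower in Insm1 mutants (median log2 change 0.77) and 6 higher and 0 lower in Tead1/2 mutants (median 1.30). Plcb4, a phospholipase of that list, was at 205 and 216 CPM against 356, 357 and 367 CPM in the Insm1 line and at 191 and 197 CPM against 321, 345 and 337 CPM in the Tead1/2 line (log2 change 0.77 and 0.78), with mutants and controls apart. The summed level of that list was 1135 and 1088 CPM in the Insm1 controls and 2397, 2303 and 2337 CPM in the mutants. In the Tead1/2 line it was 943 and 978 CPM against 2601.5, 2606 and 2469 CPM, the groups being apart in both lines. The defining factors of those cells stayed low, Eomes at 9.15 to 19.96 and Lmx1a at 0.110 to 7.57 CPM. Of the Purkinje list, 7 genes were tested, with Dab1, Itpr1 and Pcp4 higher and Foxp2 lower in Insm1 and Foxp2 and Grid2ip lower in Tead1/2 mutants, shares above the background in both lines. Of 7 interneuron genes tested, Kit was lower in both lines, and Cdh22 and Sorcs3 were higher in Tead1/2 mutants. Of 9 endothelial genes tested, Slco1a4 was lower in both lines and Kdr in Tead1/2 mutants. Of the oligodendrocyte, microglial, mural and meningeal lists, with 12, 8, 6 and 9 genes tested, at most 1 gene of a list was called in a line. The part of these transcripts in the results was not tested. The lists other than that of unipolar brush cells had summed levels of 245 to 416 CPM for oligodendrocyte, 222 to 369 for Purkinje, 52.4 to 101 for interneuron, 78 to 273 for microglial, 21 to 56 for endothelial, 13 to 36 for mural and 137 to 276 CPM for meningeal genes.

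Genes of stress and early response were called at a higher share than all genes in Insm1 and at a lower one in Tead1/2 mutants, with no test of that difference. Of 40 ribosomal protein genes, 0 were called in Insm1 and 4 were lower in Tead1/2 mutants. Of 15 stress genes, 3 were higher and 1 lower in Insm1 and 0 were called in Tead1/2 mutants, and of 15 immediate early genes 3 were higher and 1 lower in Insm1 and 1 higher and 0 lower in Tead1/2 mutants. Of 7 mitochondrial genes 0 were called in either line. Of 24 genes of a granule identity list outside the rule, 3 were higher and 7 lower in Insm1 (Insm1 itself included) and 5 higher and 5 lower in Tead1/2 mutants (median log2 change -0.06 in each). These counts include Eomes, lower in Insm1, and Lmx1a, higher in Tead1/2 mutants, which are factors of unipolar brush cells and not of granule identity.

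Postmitotic granule neurons made up a smaller share of cells in both mutants. They were 30.4% and 25.6% of cells in the Insm1 controls and 25.2%, 22.3% and 18.4% in the Insm1 mutants, a difference of means of -6.08 percentage points (28.0% ± 3.4005 SD, n = 2, to 22.0% ± 3.3994, n = 3). In the Tead1/2 line they were 22.6% and 27.7% against 14.8%, 11.6% and 13.3%, a difference of -11.9 points (25.1% ± 3.58, n = 2, to 13.3% ± 1.58, n = 3). Mutants and controls did not overlap in either line, and the two-sided exact permutation p was 0.2 in each, the smallest that 2 against 3 libraries allow.

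Cycling progenitors, defined by the same depth, granule, GABAergic and muscle limits with UMIs of 2 or more of the cycling genes, were lower as well, with differences of -19.1 points in Insm1 and -25.2 points in Tead1/2 mutants (exact permutation p 0.2, the smallest possible). No postmitotic limit was set for this class. Of its 15243 cells, 11164 met that limit and failed to be neurons only by the cycling limit. Among neurons plus progenitors the neurons were 43.6% and 39.8% on average in the controls and 56.2% and 51.6% in the mutants of the Insm1 and Tead1/2 lines. With every cell thinned to 1000 UMIs that share was 69.4% and 61.9% against 77.86%, 75.9% and 77.9% in the Insm1 line, with the groups apart, and 58.8% and 68.1% against 68.09%, 71.2% and 66.4% in the Tead1/2 line, where they overlapped. The muscle limit bears on these shares. Cells that met every limit but that one were 3.20% ± 0.0828 of neurons plus such cells for the controls and 16.7% ± 2.75 for the mutants of the Insm1 line, and 5.61% ± 0.631 against 30.2% ± 9.82 in the Tead1/2 line (SD, n = 2 and 3, exact permutation p 0.2). With these cells counted as neurons the differences shrank to -2.69 points in Insm1, where the groups then overlapped (exact permutation p 0.6), and -7.57 points in Tead1/2. Neurons that met the granule limit without Fat2 were 29.3% and 24.4% of cells against 21.3%, 18.8% and 16.2% in the Insm1 line. In the Tead1/2 line they were 21.9% and 26.6% against 12.4%, 10.6% and 12.1%, and the groups were apart in both lines. With every cell thinned to 1000 UMIs the neuron shares differed by -2.44 and -4.05 points. The progenitors were then 5.61% and 6.44% against 2.92%, 3.05% and 2.14% of cells in the Insm1 line and 5.65% and 4.97% against 2.18%, 2.36% and 2.71% in the Tead1/2 line, still with the groups apart. Whether neurons or progenitors were reduced by more points thus depends on depth in the Tead1/2 line.

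**Figure D1:**
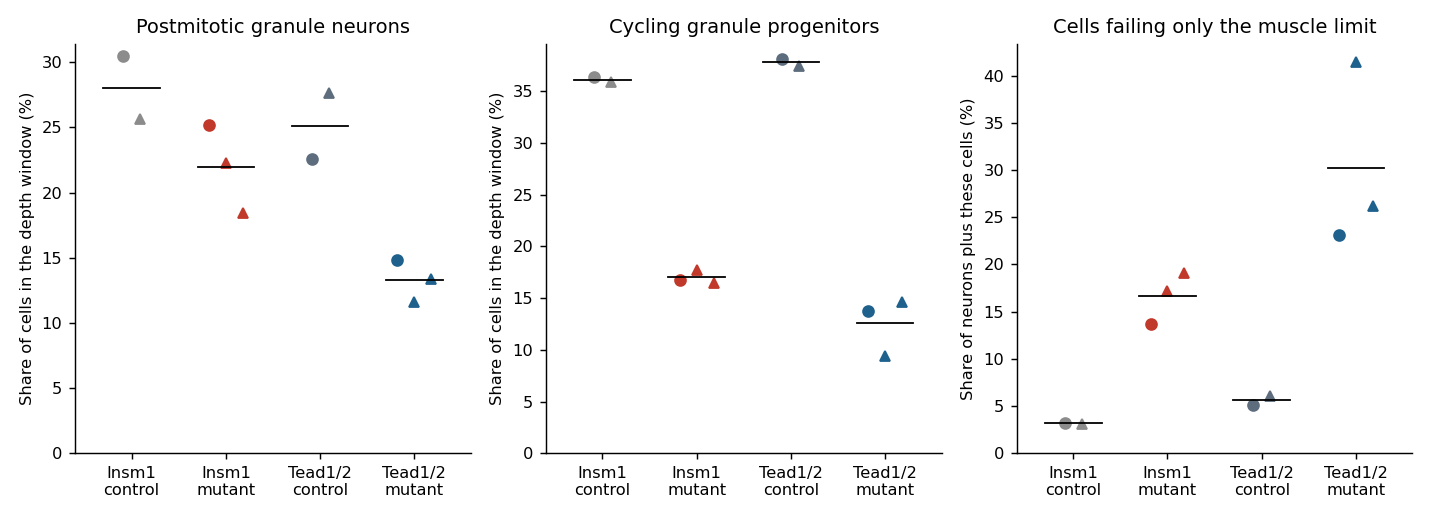
Share of cells per library, in percent, for postmitotic granule neurons (left), cycling granule progenitors (middle) and cells that fail only the muscle limit, as a share of the neurons plus those cells (right). Each point is 1 library (circles with all lobules, triangles without lobules IX and X) and each line a group mean; neuron shares are lower in every mutant library than in the controls of its line.

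The targeted genes were read first. Insm1 was at 44.3 and 45.98 CPM in controls of the Insm1 line and 13.8, 5.79 and 6.27 CPM in its mutants (log2 change -2.33, SE 0.34, FDR 0.000329), every mutant below every control. In the Tead1/2 line it was at 54.5 and 60.1 CPM against 41.97, 99.3 and 88.5 CPM in controls and mutants, with overlapping groups and no call (log2 change 0.42, FDR 0.376). By the same edgeR test that rise was called without Tead1/2 mutant 1 (log2 change 0.71, FDR 0.0331), with neurons thinned to 1000 UMIs (0.68, FDR 0.0308) and with no filter on low counts (0.39, FDR 0.00749). Tead2 was at 19.8 and 20.3 CPM in controls of the Tead1/2 line and 5.15, 4.07 and 4.17 CPM in its mutants (log2 change -2.17, SE 0.15, FDR 2.74e-07), and the groups did not overlap. Tead1 counts went the other way, 436 and 453 CPM against 1025, 1089.8 and 1007 CPM in the controls and mutants of the Tead1/2 line (log2 change 1.23, SE 0.08, FDR 1.30e-07). Gene-level counts do not separate deleted from remaining exons, so the Tead1 value does not measure the deletion. Insm1 and Tead2 were thus lowest in the libraries named for them, although not absent.

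In neurons of the Insm1 mutants the largest rises included the Slit ligand Slit3 and the calcium pump Atp2b3, and the largest falls included the neurexophilin Nxph4 and the transglutaminase subunit F13a1. Of 15077 genes tested in the sums of neurons per library, 2392 were called at an adjusted p under 0.05 (15.9%), 1466 higher (9.72%) and 926 lower (6.14%), by edgeR's quasi-likelihood test with Benjamini-Hochberg adjustment over all genes tested. Slit3, a secreted ligand of Robo receptors, was at 8.59 and 16.8 CPM in controls of the Insm1 line and 556, 610.0 and 598 CPM in its mutants (log2 change 5.59, SE 0.23, FDR 6.39e-09). Atp2b3, a calcium pump of the plasma membrane, was at 6.25 and 4.52 CPM in controls of the Insm1 line and 203, 236 and 261 CPM in its mutants (log2 change 5.39, SE 0.23, FDR 6.39e-09). For both genes each mutant was far above each control. Groups that do not overlap, in either direction and by any distance, were found in 45.2% of all genes tested in this line and in 43.4% in the Tead1/2 line.

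Slit1, a further Slit ligand, was at 0.442 and 0.431 CPM against 12.2, 18.4 and 14.8 CPM in the Insm1 controls and mutants (log2 change 5.07), and Grin2c, the NMDA receptor subunit of mature granule cells, at 0.253 and 0.431 CPM against 8.81, 11.9 and 14.1 CPM (log2 change 5.09, from 4 UMIs in each control). The neuronal pentraxin Nptx1 was at 1.200 and 0.538 CPM against 30.4, 36.02 and 33.4 CPM (log2 change 5.12), and the synaptotagmin Syt6 at 1.71 and 1.18 CPM against 37.4, 32.3 and 25.1 CPM (log2 change 4.40). Tmem117, a membrane protein, was at 23.8 and 19.8 CPM against 428, 509 and 507 CPM (log2 change 4.45, SE 0.13, FDR 5.90e-10). Kif26a, an atypical kinesin (log2 change 4.89), and Amer3 (log2 change 4.85) completed the largest rises together with Tesc, the calcium-binding tescalcin. Tesc rests on 2 and 3 UMIs in the controls and 113, 143 and 67 in the mutants, so its fold is not given. The control and mutant ranges of these genes were separate, as the rule for naming them required.

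The largest falls in Insm1 mutants began with Nxph4, a neurexophilin that binds neurexins, at 11.7 and 12.8 CPM against 1.83, 1.59 and 1.57 CPM (log2 change -2.86, SE 0.19, FDR 2.93e-07). F13a1, a transglutaminase subunit, was at 32.7 and 24.1 CPM against 5.83, 5.23 and 3.13 CPM (log2 change -2.52, SE 0.22, FDR 3.08e-06). In the Tead1/2 line F13a1 was at 12.4 and 12.7 CPM against 16.6, 13.98 and 10.2 CPM, with overlapping groups and no call (log2 change 0.11, FDR 0.796), and the effects differed between the lines (log2 difference -2.63, FDR 0.00208). Cntnap5a, a contactin-associated protein, fell by 2.31, the glycosyltransferase Galnt9 fell by 2.20 and the galanin receptor Galr1 fell by 2.10 on the log2 scale. Gprin3, a protein tied to G-protein signalling, was at 333 and 335 CPM in controls of the Insm1 line and 136, 99.6 and 87.5 CPM in its mutants (log2 change -1.62, SE 0.15, FDR 5.38e-06). The potassium channel Kcnh8 (log2 change -1.73), the collagen Col11a1 (-1.64) and the phosphatidylinositol transfer protein Pitpnm3 (-1.63) fell as well. In each of these genes mutants and controls of the Insm1 line were apart, as the rule for naming them required.

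In neurons of the Tead1/2 mutants 2717 of the 15077 genes were called (18%), 1641 higher (10.9%) and 1076 lower (7.14%), by the same edgeR fit. Cdon, a co-receptor for Sonic hedgehog that muscle precursors also use, was at 2.33 and 1.95 CPM in controls of the Tead1/2 line and 111, 120.4 and 84.6 CPM in its mutants (log2 change 5.60, SE 0.20, FDR 1.50e-09). Gabrb2, the beta 2 subunit of the GABA-A receptor of mature granule cells, was at 8.56 and 9.87 CPM in controls of the Tead1/2 line and 211, 266 and 227 CPM in its mutants (log2 change 4.68, SE 0.14, FDR 6.60e-10). Atp2b3 (log2 change 5.42), Nptx1 (5.02) and Amer3 (4.89) were again among the largest rises. Ccdc192 was at 1.66 and 0.434 CPM against 53.4, 70.99 and 42.7 CPM (log2 change 5.62). For all these genes the mutants lay above the controls, which the naming rule required of the largest rises.

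Several of the largest Tead1/2 rises start from almost no UMIs in controls. Counts are given in place of folds wherever a library of the lower group had 3 or fewer UMIs. Ctxn3, a cortexin, had 4 and 3 UMIs in the Tead1/2 controls and 61, 119 and 82 in the mutants. Vwa5b1 had 0 and 1 UMI in the Tead1/2 controls and 52, 150 and 58 in the mutants. Tacr1, the substance P receptor, had 3 and 0 against 82, 81 and 55 UMIs, and Cbln4, a cerebellin that organises synapses, had 3 and 1 against 72, 95 and 65 UMIs. Cdh15, a cadherin of muscle and of granule cells, had 3 in each control against 66, 95 and 80 UMIs. All of them are called (FDR at most 1.29e-05 for Vwa5b1).

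The largest falls in Tead1/2 mutants included Gria4, an AMPA receptor subunit, at 1566 and 1537 CPM in controls of the Tead1/2 line and 546, 303 and 439 CPM in its mutants (log2 change -1.85, SE 0.18, FDR 6.05e-06). Chrna3, a nicotinic receptor subunit, was at 63.01 and 57.5 CPM against 13.6, 10.3 and 8.997 CPM (log2 change -2.46, SE 0.15, FDR 1.00e-07), and Mfap4, a microfibril protein, at 51.8 and 60.4 CPM against 9.76, 7.43 and 12.2 CPM (log2 change -2.51, SE 0.15, FDR 8.26e-08). Hey1, a Notch target (log2 change -2.37), Galr1 (-2.25), Cyp11a1, the enzyme that starts steroid synthesis (113 and 108 UMIs against 6, 3 and 22), the potassium channel Kcnh5 (-1.74) and the VEGF receptor Kdr (-1.74) fell. Kdr is a gene of the endothelial list, whose sum was 47.6 and 53.6 CPM in the Tead1/2 controls and 21.1, 35.8 and 23.98 CPM in the mutants, with the groups apart and a median log2 change of -1.10 over 9 genes, and the part of endothelial RNA in its fall was not tested. The named gene with the greatest fall, the red-cell globin Hbb-bs (15.5 and 4.77 CPM against 0.552, 0.531 and 0.167 CPM), is no gene of neurons. It had 187 and 44 UMIs in the controls and 3, 3 and 1 in the mutants, and blood RNA in these libraries was not tested. These falls separate each mutant from each control, as the rule for naming them required.

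**Figure D2:**
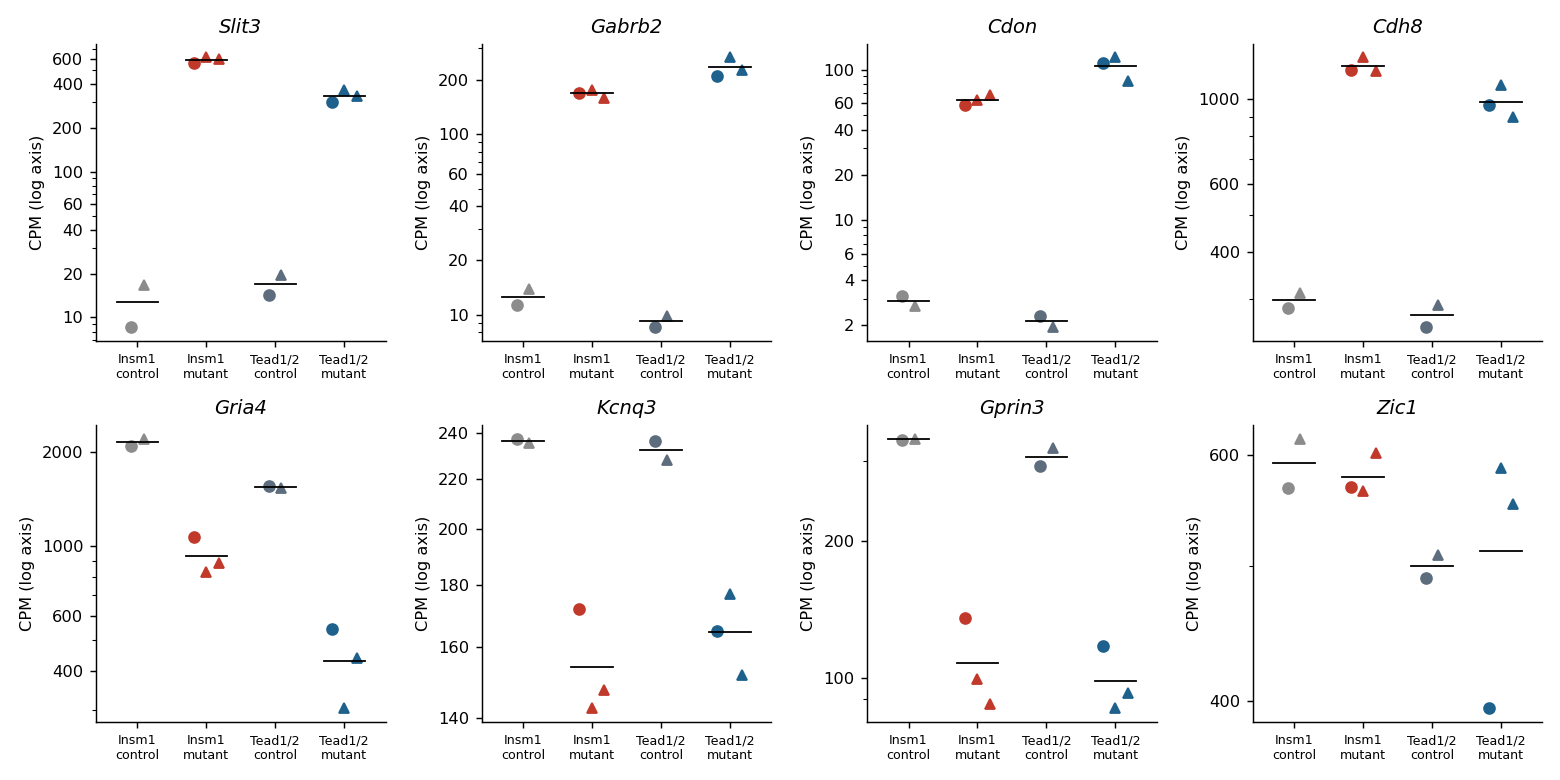
CPM (log axes) of 8 genes in the summed neurons of each library, by group. Each point is 1 library (circles with all lobules, triangles without lobules IX and X) and each line a group mean; Slit3, Gabrb2, Cdon and Cdh8 are higher and Gria4, Kcnq3 and Gprin3 lower in every mutant library than in its controls, while the Zic1 groups overlap.

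Many genes moved in both mutants. Of the genes called higher, 1081 were called in both lines, 73.7% of those in Insm1 and 65.9% of those in Tead1/2. Of those called lower, 571 were shared, 61.7% and 53.1% of each set. Opposite calls were rare, 4 genes higher in Insm1 and lower in Tead1/2 mutants and 1 the other way. The lines share no control library, and with each line fitted on its own 5 libraries 1039 higher (71.9% and 72.7%) and 496 lower (51.9% and 61.01%) genes were called in both. The plot of 8 genes shows this side by side: Gabrb2 in the Insm1 line was at 11.3 and 13.9 CPM against 168, 177 and 159 CPM (log2 change 3.76), and Cdon at 3.16 and 2.69 CPM against 58.6, 62.5 and 67.4 CPM (log2 change 4.39). Slit3 in the Tead1/2 line was at 14.2 and 19.5 CPM against 299, 366 and 333 CPM (log2 change 4.31), Gria4 in the Insm1 line at 2099 and 2214 CPM against 1074, 827 and 886 CPM (log2 change -1.21) and Gprin3 in the Tead1/2 line at 293 and 319 CPM against 118, 85.9 and 92.6 CPM (log2 change -1.63). Each of these is a call, with mutants and controls apart.

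The effects themselves differed between the lines for 27 genes (0.179%), 13 with a more positive (0.0862%) and 14 with a more negative Insm1 effect (0.0929%), while 1237 had an unadjusted p under 0.05 in the same edgeR contrast. Trmt9b, a tRNA methyltransferase homologue, was at 17.7 and 16.8 CPM against 37.5, 44.5 and 40.1 CPM in the Insm1 line (log2 change 1.23) and at 5.49 and 5.31 CPM against 53.6, 58.8 and 56.1 CPM in the Tead1/2 line (3.37, difference -2.14, FDR 9.83e-05). Itga9, an integrin, was at 18.5 and 15.4 CPM against 29.1, 31.4 and 29.3 CPM in the Insm1 line (log2 change 0.81) and at 17.9 and 12.7 CPM against 114, 145 and 101.6 CPM in the Tead1/2 line (2.96, difference -2.15, FDR 0.00117). Bmp5, a bone morphogenetic protein ligand, moved in opposite directions, at 44.3 and 51.2 CPM against 97.01, 97.7 and 80.6 CPM in the Insm1 line (log2 change 0.95) and 49.2 and 50.1 CPM against 25.8, 17.9 and 17.99 CPM in the Tead1/2 line (-1.28, difference FDR 0.000245). Mgat4c, a glycosyltransferase, was called in Tead1/2 (log2 change 2.57) and not in Insm1 (-0.52, FDR 0.132), with a difference of -3.09 (FDR 0.000944). Mfap4 also differed (difference 2.04, FDR 0.000739), as did Insm1 (-2.75, FDR 0.0272) and Tead2 (1.78, FDR 0.000972). The count of genes with such a difference was 15 without Insm1 mutant 2, 17 without Insm1 control 1 and 49 without Tead1/2 mutant 1.

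Upstream sequence is shown for 3 of the genes that rose in both lines, the 2 with a match to GGAATG among the 16 such named genes that have a promoter in the table and Slit3 as 1 of the 14 without, because TEAD proteins are known to bind GGAATG and basic helix-loop-helix proteins the E-box CAGCTG. The sequences are the 250 bases before the gene start, 5′ to 3′ on the gene's strand, from RefSeq on GRCm38.p6, at chr3:153973186-153973435 (plus strand, Slc44a5), chr5:118027493-118027742 (plus strand, Tesc) and chr11:35121206-35121455 (plus strand, Slit3), with capitals for each match to GGAATG or CAGCTG on either strand.
Slc44a5: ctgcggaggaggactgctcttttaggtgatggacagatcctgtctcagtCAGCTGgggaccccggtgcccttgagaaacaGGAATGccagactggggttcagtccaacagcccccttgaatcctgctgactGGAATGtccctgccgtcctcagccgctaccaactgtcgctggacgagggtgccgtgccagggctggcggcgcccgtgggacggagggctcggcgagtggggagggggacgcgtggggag
Tesc: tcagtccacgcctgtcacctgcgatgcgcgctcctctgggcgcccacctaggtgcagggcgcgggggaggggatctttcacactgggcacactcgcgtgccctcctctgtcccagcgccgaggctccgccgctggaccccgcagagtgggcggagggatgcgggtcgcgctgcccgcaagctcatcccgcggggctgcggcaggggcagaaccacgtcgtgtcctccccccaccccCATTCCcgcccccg
Slit3: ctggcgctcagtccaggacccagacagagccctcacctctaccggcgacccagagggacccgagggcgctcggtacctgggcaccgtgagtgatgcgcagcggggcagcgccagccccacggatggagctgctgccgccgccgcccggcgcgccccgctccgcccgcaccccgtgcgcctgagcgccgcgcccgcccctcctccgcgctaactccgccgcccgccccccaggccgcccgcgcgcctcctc

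Slc44a5 holds GGAATG at 2 places, 170 and 119 bases upstream, and CAGCTG at 201 bases. Tesc holds 1 match to GGAATG on the other strand, 14 bases upstream, and Slit3 holds neither motif in this window. Of all 27 named genes with a promoter, 3 hold GGAATG, the third being Kcnh5, which fell in Tead1/2 mutants. GGAATG occurs in 12.6% of all 22862 promoters of the table and in 10.5% of those of the genes tested. It occurs in 14.4% of the promoters of genes called higher and 8.10% of those called lower in Insm1 mutants, and in 14.5% and 9.42% in Tead1/2 mutants. CAGCTG occurs in 11.9% of promoters of genes tested, in 16.1% and 16.4% of higher and lower genes in Insm1 and in 15.3% and 15.04% in Tead1/2 mutants. Only 8741 of 15044 tested symbols matched a promoter, and a match is a description of letters, not of binding.

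Genes of late granule cell differentiation rose more often than they fell. In Insm1 mutants 18 of the 30 list genes were higher and 4 lower (median log2 change 0.70, against -0.001 over all genes tested), and in Tead1/2 mutants 16 were higher and 1 lower (median 0.63, against 0.001 over all genes). Etv1, an ETS factor of maturing granule cells, was at 17.4 and 23.2 CPM against 67.8, 75.8 and 68.5 CPM in the Insm1 line (log2 change 1.82, SE 0.14, FDR 1.03e-06) and 21.8 and 17.5 CPM against 41.97, 52.8 and 49.98 CPM in the Tead1/2 line (log2 change 1.29, SE 0.14, FDR 2.78e-05). Calb2, the calretinin gene, rose (log2 change 3.04 and 2.35), as did Syt1, the synaptic calcium sensor (0.76 and 0.54). Snap25 of the synaptic fusion complex went the other way in Insm1 (log2 change -0.60, FDR 6.75e-05) and was not called in Tead1/2 mutants (-0.14, FDR 0.23). The late genes thus did not all move one way.

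Genes of early neurites and migration moved in both directions. Of 26 early list genes, 4 were higher and 8 lower in Insm1 mutants (median -0.14) and 6 higher and 7 lower in Tead1/2 mutants (median -0.13). Dcc, the netrin receptor, was at 6151 and 6176 CPM against 3652, 3472 and 3365 CPM in the Insm1 line (log2 change -0.82, SE 0.12, FDR 0.000358) and 7188 and 6456 CPM against 4686, 3238 and 3646 CPM in the Tead1/2 line (log2 change -0.82, SE 0.12, FDR 0.000324), with no overlap. Dcx, the microtubule protein doublecortin, fell by 0.49 and 0.50, and the helix-loop-helix factors Nhlh1 (log2 change -0.97 and -0.66) and Nhlh2 (-0.70 and -0.56) fell as well. Summed over each list, early genes went from 20120 CPM ± 185 in Insm1 controls to 15539 ± 383 in mutants and from 20319 ± 687 to 15446 ± 1220.4 in the Tead1/2 line (SD, n = 2 and 3), and late genes from 19547 ± 453 to 20837 ± 583 and from 18336 ± 83.5 to 18843 ± 566. The log2 ratio of late to early sums was -0.04 in Insm1 controls and 0.42 in mutants (difference 0.47), and -0.15 and 0.29 in the Tead1/2 line (difference 0.44), with separate groups and an exact permutation p of 0.2, the smallest possible. Dcc alone holds a large part of the early sum. In neurons thinned to equal depth the mean share with a UMI of an early gene was 28.9% and 25.8% for controls and mutants of the Insm1 line, 27.5% and 25.5% for those of the Tead1/2 line, and of a late gene 21.7% and 23.8%, and 20.01% and 21.8%.

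Receptor and channel genes split by subunit. Of 29 glutamate and GABA receptor genes, 12 were higher and 4 lower in Insm1 mutants (median 0.23) and 10 higher and 7 lower in Tead1/2 mutants (median 0.04). Gabrb2 and Grin2c rose while Gria4 fell, as given above. Of 33 ion channel genes, 12 were higher and 9 lower in Insm1 (median 0.17) and 16 higher and 5 lower in Tead1/2 mutants (median 0.29). Kcnq3, a potassium channel subunit, was at 238 and 236 CPM against 172, 142 and 148 CPM in the Insm1 line (log2 change -0.62, SE 0.09, FDR 0.000228) and at 237 and 228 CPM against 165, 177 and 152 CPM in the Tead1/2 line (log2 change -0.50, SE 0.09, FDR 0.00127). It was lower in each mutant library than in each control of its line. Of 26 genes of the presynaptic release machinery, 6 were higher and 3 lower in Insm1 mutants (median -0.04) and 6 higher and 1 lower in Tead1/2 mutants (median 0.02).

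Most of the adhesion and guidance genes that were called were higher in the mutants. Of 32 neuronal adhesion genes, 17 were higher and 5 lower in Insm1 mutants (median 0.53) and 17 higher and 3 lower in Tead1/2 mutants (median 0.38), and of 35 guidance genes, 14 and 5 (median 0.29) and 17 and 7 (median 0.38). Of all genes called, 61.3% were higher in Insm1 and 60.4% in Tead1/2 mutants, and no test set these lists apart from that share. Cdh8, a classical cadherin, was at 284 and 312 CPM in controls of the Insm1 line and 1196, 1287 and 1183 CPM in its mutants (log2 change 2.04, SE 0.10, FDR 2.88e-08), and at 254 and 291 CPM in controls of the Tead1/2 line and 969, 1093 and 898 CPM in its mutants (log2 change 1.86, SE 0.10, FDR 4.90e-08). A UMI of Cdh8 was found in 21.0% and 21.8% of thinned neurons of the Insm1 controls and 57.4%, 64.8% and 59.4% in the mutants, and in 19.3% of both Tead1/2 controls and 48.3%, 56.2% and 51.8% in the mutants. In GABAergic cells, where Atoh1Cre is not known to act, that share was 1.66% to 5.91% across the libraries. Unthinned, the Cdh8 shares of neurons were 49.1% to 52.3% in controls and 77.7% to 92.7% in mutants, against 8.71% to 17.2% in GABAergic cells. Cdh10, a related cadherin, rose (log2 change 0.80 and 1.44). The Slit3 share of thinned neurons went from 0.6% and 1.1% to 23.7%, 27.3% and 26.1% in the Insm1 line, and from 0.8% and 1.3% to 12.05%, 14.8% and 15.9% in the Tead1/2 line, against 0% to 1.97% in GABAergic cells. Unthinned, the Slit3 shares were 2.29% to 3.87% in controls, 40.6% to 47.1% in Insm1 and 23.5% to 33.0% in Tead1/2 mutants, against 1.20% to 5.42% in GABAergic cells. No neuron was shallower than 1000 UMIs, so none was left out by thinning.

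All replication genes that were called were lower, and more of the progenitor genes that were called were lower than higher. Of 24 replication genes, 0 were higher and 14 lower in Insm1 mutants (median -0.60), and 0 and 17 in Tead1/2 mutants (median -0.80), with Mcm6 of the replicative helicase at 36.2 and 41.4 CPM against 21.5, 27.6 and 25.96 CPM (log2 change -0.63) and 46.9 and 45.8 CPM against 27.1, 22.3 and 29.99 CPM (-0.81). The rule allows 1 of the 6 cycling genes per neuron. Neurons with no UMI of them were 1647 of 2491 and 1122 of 1663 in the Insm1 controls. In the Insm1 mutants they were 1137 of 1504, 966 of 1351 and 418 of 628. The Tead1/2 controls had 1154 of 1783 and 927 of 1397. The Tead1/2 mutants had 734 of 963, 592 of 813 and 518 of 772. A fit on these neurons alone changed the sign of 0 named gene effects, and 4 lost their call. The part of neurons with a cycling UMI in the replication calls was not tested. Of 25 progenitor genes, 3 were higher and 9 lower in Insm1 (Insm1 itself included, median -0.09) and 4 higher and 11 lower in Tead1/2 mutants (median -0.51). Sfrp1, a Wnt antagonist, was at 108 and 121 CPM against 42.6, 55.8 and 53.9 CPM (log2 change -1.18, SE 0.12, FDR 8.94e-06) and 108 and 104 CPM against 39.9, 38.8 and 48.8 CPM (log2 change -1.31, SE 0.12, FDR 3.85e-06), and the Sonic hedgehog effectors Gli1 (log2 change -1.34 and -0.95) and Gli2 (-0.52 and -1.08) fell. The cyclins of this list split: Ccnd2 fell (log2 change -0.70 and -0.56), while Ccnd1 was at 31.1 and 33.2 CPM against 76.8, 98.4 and 103 CPM (log2 change 1.52, SE 0.24, FDR 0.000651) and 30.8 and 27.6 CPM against 51.7, 111 and 107 CPM (log2 change 1.62, SE 0.25, FDR 0.000455). Cdkn1c, an inhibitor of the cell cycle that muscle also uses, was at 6.88 and 8.29 CPM against 37.8, 67.9 and 66.9 CPM (log2 change 2.93) and 6.400 and 2.93 CPM against 15.3, 29.7 and 30.8 CPM (2.39), and 2 and 1 of the 10 inhibitor genes tested were higher, with 1 lower in each line.

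Among 41 neuronal transcription factors, 4 were higher and 14 lower in Insm1 mutants (median -0.17) and 6 higher and 17 lower in Tead1/2 mutants (median -0.22). The 4 higher in Insm1 are about the share of all genes called higher there (9.72%). Bcl11b, a zinc-finger factor, was at 3.47 and 3.55 CPM against 16.8, 19.2 and 21.04 CPM (log2 change 2.42, SE 0.16, FDR 2.92e-07) and 5.902 and 6.18 CPM against 42.5, 50.8 and 40.7 CPM (log2 change 2.88, SE 0.15, FDR 3.25e-08), and Ebf2 rose (log2 change 1.89 and 2.00). Sox11, a factor of immature neurons, fell by 0.87 and 0.99. Of 14 tested genes of the INSM1 corepressor group and related repressors, 2 were higher and 6 lower in Insm1 mutants, the deleted gene Insm1 among the latter, and 2 higher and 5 lower in Tead1/2 mutants. Rest, the repressor of neuronal genes in other cells, was at 4.86 and 5.49 CPM against 18.3, 19.7 and 21.04 CPM (log2 change 1.93, SE 0.23, FDR 5.89e-05) and 4.07 and 1.52 CPM against 15.5, 19.1 and 16.5 CPM (log2 change 2.54, SE 0.26, FDR 1.45e-05), while Myt1l, which represses non-neuronal genes in neurons, was at 486 and 419 CPM against 203, 199.8 and 135 CPM (log2 change -1.33, SE 0.26, FDR 0.00253) and 562 and 501 CPM against 291, 141 and 138 CPM (log2 change -1.49, SE 0.26, FDR 0.00104). The corepressor Rcor2 fell by 0.54 and 0.71. Of 13 tested TEAD family and partner genes, 5 were higher and 1 lower in Insm1 mutants, and 6 higher and 1 lower in Tead1/2 mutants, with Tead1 among the higher and Tead2 as the lower gene in both lines, which in the Tead1/2 line are the deleted genes. Yap1 was at 12.6 and 14.2 CPM against 35.2, 31.02 and 43.4 CPM (log2 change 1.44, SE 0.16, FDR 2.52e-05) and 7.23 and 7.05 CPM against 30.9, 38.4 and 29.2 CPM (log2 change 2.20, SE 0.18, FDR 1.22e-06), and Tead4 rose in both lines, from 11 and 3 UMIs to 59, 52 and 41 in the Insm1 line and from 6 and 7 to 27, 37 and 65 in the Tead1/2 line (log2 change 3.58 in the latter). For each factor named here the mutants and controls of a line did not overlap.

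Neurons of a mutant library were not alike. For each neuron, UMIs per 1000 were summed over 40 genes called higher in the mutants of the other line, so that the genes were not chosen on the libraries they were read in. In the Insm1 line the median sum was 1 in each control and 12, 14 and 14.5 in the mutants. In the Tead1/2 line it was 2 in each control and 15, 18 and 16 in the mutants. In cycling progenitors the median was 1 in each control and 6, 8 and 8 in the mutants of the Insm1 line, and 3 in each control and 8, 12 and 10 in the mutants of the Tead1/2 line. GABAergic cells had medians of 4 or 5 in all 10 libraries, controls and mutants alike. Sums over genes lower in the other line (40 for the Insm1 and 33 for the Tead1/2 line) had medians of 14 in both Insm1 controls and 6 in all 3 mutants, and 11 in both Tead1/2 controls against 4, 3 and 4.

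A part of the neurons of each mutant library had sums in the range of the controls, taken as sums up to the 95th percentile of the control neurons of the line (6 in Insm1, 11 in Tead1/2). In the Insm1 mutants these were 29.9%, 19.5% and 17.2% of neurons, against 95.7% and 95.1% in the controls, and in the Tead1/2 mutants 39.6%, 24.8% and 32.3%, against 96.4% and 93.6%. The control shares are near 95% because the limit was set on them, so no test is given. On the genes lower in the other line the mutant neurons within that range were not like the controls. Their median sum over the lower genes was 11, 10 and 10 against 14 in both controls of the Insm1 line, and 8, 5 and 6 against 11 in both controls of the Tead1/2 line. Gria4, 1 of those genes, was at 1212, 827 and 1069 CPM in them against 2098 and 2244 CPM, and at 725, 374 and 520.0 CPM against 1602 and 1522 CPM. Dcc, which fell over all neurons, was not lower in them. It was at 7159, 8200 and 7072 CPM against 6348 and 6429 CPM in the Insm1 line. In the Tead1/2 line it was at 8275, 6539 and 7160 CPM against 7560 and 6871 CPM, with overlapping groups. Gli2 overlapped the controls in the Insm1 line and lay below them in the Tead1/2 line. Such a limit divides a continuous range and defines no cell type, and 1.7% to 10.4% of neurons lay within 1 of it. At the 99th percentile of the controls the differences between mutants and controls were -61.9 points in Insm1 and -15.6 points in Tead1/2, in place of -73.2 and -62.8. At the 95th percentile the mutant with all lobules had the highest share in both lines, with 1 such library per group, while at the 99th it did not in the Tead1/2 line (83.5% against 81.9% and 84.5%).

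**Figure D3:**
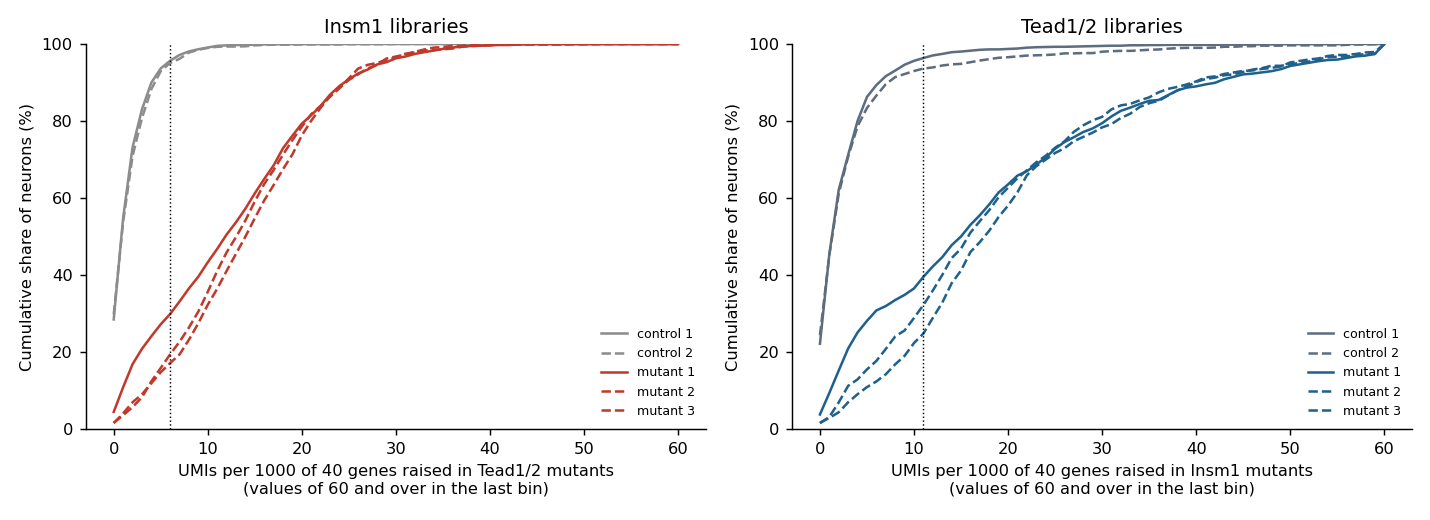
Cumulative share of neurons, in percent, by their summed UMIs per 1000 of 40 genes raised in the mutants of the other line, for the Insm1 (left) and Tead1/2 libraries (right), with 1 line per library (solid with all lobules, dashed without lobules IX and X). The dotted line is the 95th percentile of the control neurons; 17.2% to 29.9% of Insm1 mutant and 24.8% to 39.6% of Tead1/2 mutant neurons lie at or under it.

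The targeted gene was then read in both ranges, which had not used it. Within the control range Insm1 was at 37.6, 19.5 and 29.3 CPM in the 3 Insm1 mutants (101, 37 and 23 UMIs), and above it at 3.10, 1.95 and 1.35 CPM (20, 14 and 5 UMIs). The Insm1 controls had 45.0 and 48.0 CPM within the range and 28.1 and 20.3 CPM among their 108 and 82 neurons above it. Insm1 transcripts in the mutants thus lay mostly in the neurons within the control range. In the Tead1/2 mutants Tead2 was at 7.84, 5.75 and 6.71 CPM within the range and 3.25, 3.53 and 3.08 CPM above it, against 20.9 and 21.7, and 7.02 and 6.17 CPM in the controls, and it was below the controls within the range (17, 8 and 13 UMIs against 235 and 183). Above the range the controls had only 3 and 4 UMIs of Tead2 against 11, 15 and 12 in the mutants, too few for a comparison. Tead1 was at 714, 977 and 829 CPM within and 1187, 1130.2 and 1138 CPM above the range in the Tead1/2 mutants. The Tead1/2 controls had 460 and 483 CPM of Tead1 within the range and 173 and 142 CPM above it. Mutant neurons within the range thus also lay above the controls in Tead1. Whether the neurons within the control range escaped recombination was not tested.

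**Figure D4:**
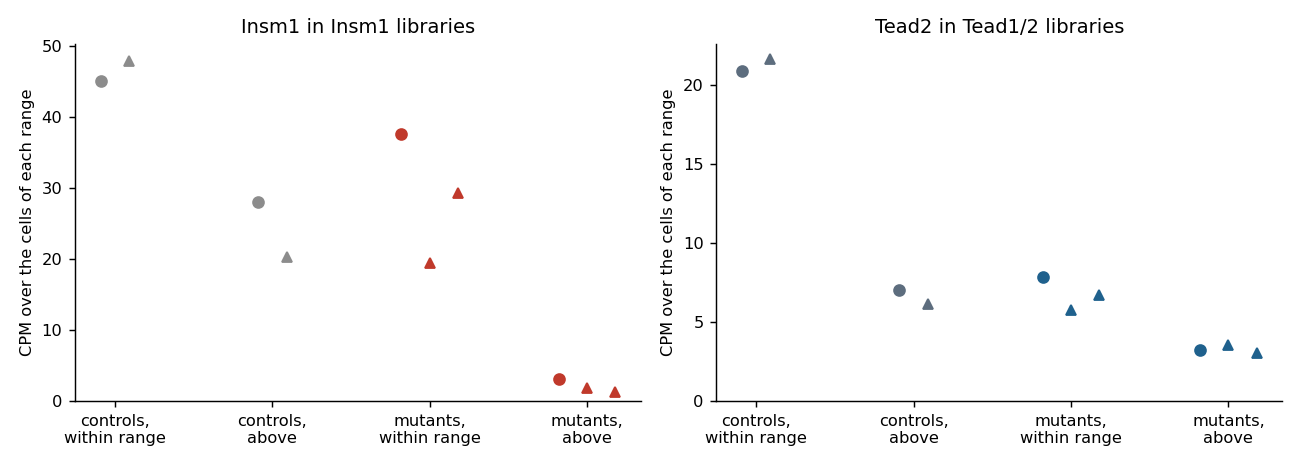
CPM of Insm1 in the Insm1 libraries (left) and of Tead2 in the Tead1/2 libraries (right), summed over the neurons within and above the control range of the per-cell sums. Each point is 1 library (circles with all lobules, triangles without); Insm1 is at 19.5 to 37.6 CPM in mutant neurons within the range and at most 3.10 CPM above it.

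The mutant effect was also compared with that in cycling progenitors, as an interaction of class and genotype in edgeR with the library as a block. Most of those progenitors also met the postmitotic limit, so the classes were set apart mainly by the cycling genes. In Insm1, 1276 of 15886 genes had another effect in neurons (8.03%), 800 more positive (5.04%) and 476 more negative (3%). In Tead1/2 it was 1563 (9.84%), 891 more positive (5.61%) and 672 more negative (4.23%). Slc44a5, a choline transporter-like protein, was at 39.5 and 47.5 CPM against 138, 144 and 165 CPM in neurons of the Insm1 line and 46.05 and 49.7 CPM against 268, 319 and 296 CPM in the Tead1/2 line, with effects more positive than in progenitors by 1.49 (SE 0.08) and 2.10 (SE 0.08) on the log2 scale (FDR 9.95e-09 and 3.98e-11). Gabrb2 exceeded its progenitor effect by 1.68 (SE 0.12) and 3.07 (SE 0.13), Ralyl, an RNA-binding protein, by 1.49 (SE 0.09) and 2.19 (SE 0.09), and Cdh8 by 1.22 (SE 0.08) and 1.54 (SE 0.08). The sulphotransferase Ust (1.32 and 1.56), the peptidase Trhde (1.00 and 1.12) and Dip2b (1.12 in Insm1) were named by the same rule. Of the 30 late genes, 18 in Insm1 and 20 in Tead1/2 had a more positive effect in neurons and 0 a more negative one (medians 0.56 and 0.73), and of the 24 replication genes 16 and 15 had a more negative one. Every progenitor had to hold cycling genes and neurons were limited in them, so the replication count is not independent of that selection. Leaving out a control moved the counts of genes with another effect most, to 666 and 814 in Insm1 without its control 1 or 2, and to 808 and 986 in Tead1/2 without its control 1 or 2. The split moved as well: the more negative genes fell from 476 to 169 and 214 in Insm1 without its control 1 or 2 and to 310 without its mutant 3, and from 672 to 279 and 347 in Tead1/2 without its control 1 or 2, to 299 without Tead1/2 mutant 2 and to 393 without Insm1 control 2.

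Muscle genes, the subject of the series, were read in the neurons beside 3 backgrounds. Of 36 tested genes of the skeletal muscle list, which leaves out the 6 genes of the rule, 12 were higher and 0 lower in Insm1 mutants (median 1.04) and 17 higher and 0 lower in Tead1/2 mutants (median 1.47). The gene of the list with the most transcripts in the mutants was Nebl, the nebulette gene of heart Z-discs and focal adhesions, at 77.1 and 123 CPM in controls and 1276, 1385 and 1267 CPM in mutants of the Insm1 line (log2 change 3.77, SE 0.25, FDR 2.67e-07), and at 68.6 and 130.3 and 702, 777 and 718 CPM in the Tead1/2 line (log2 change 2.91, SE 0.24, FDR 1.74e-06). In progenitors Nebl was at 59.9 and 81.1 against 321, 337 and 215 CPM, and 44.3 and 48.7 against 123, 142 and 125 CPM, and its effect was more positive in neurons (class difference 1.74 and 1.53, FDR 1.80e-06 and 1.15e-05). In GABAergic cells it was at 533 and 625 against 602, 708 and 505 CPM, where the groups overlapped, and 355 and 360.2 against 306, 228 and 321 CPM, lower in the Tead1/2 mutants. Mef2c, a factor of muscle and neurons, rose by the same fit in the neurons (log2 change 1.56 and 2.16).

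Without Nebl, Mef2a, Mef2c and Mef2d, which neurons also express, the other 56 muscle genes were summed in each kind of barcode. The limit on the 6 sarcomere genes bears on this sum in neurons and progenitors, since it left out 13.7% to 41.4% of the mutant cells that met every other limit for a neuron, so levels are not ranked between kinds of barcode. They summed to 42.9 CPM ± 0.869 in neurons of Insm1 controls and 103.8 ± 15.5 in mutants, and to 43.9 ± 0.225 and 122 ± 20.5 in the Tead1/2 line (SD, n = 2 and 3). In progenitors they went from 51.0 to 170.1 and from 47.1 to 183 CPM. In GABAergic cells, to which no muscle limit was applied, they went from 54.5 to 651 and from 43.3 to 1006 CPM, and in barcodes of at most 100 UMIs, which hold free RNA, from 434 to 2363 and from 834 to 5079 CPM. Each of these mutant groups lay above its controls (exact permutation p 0.2, the smallest possible). Myod1, the muscle determination gene, had 6 and 2 UMIs in neurons of the Insm1 controls and 22, 34 and 14 in the mutants, and 3 and 1 against 18, 16 and 36 in the Tead1/2 line. The part of free RNA in the muscle counts of neurons was not tested.

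**Figure D5:**
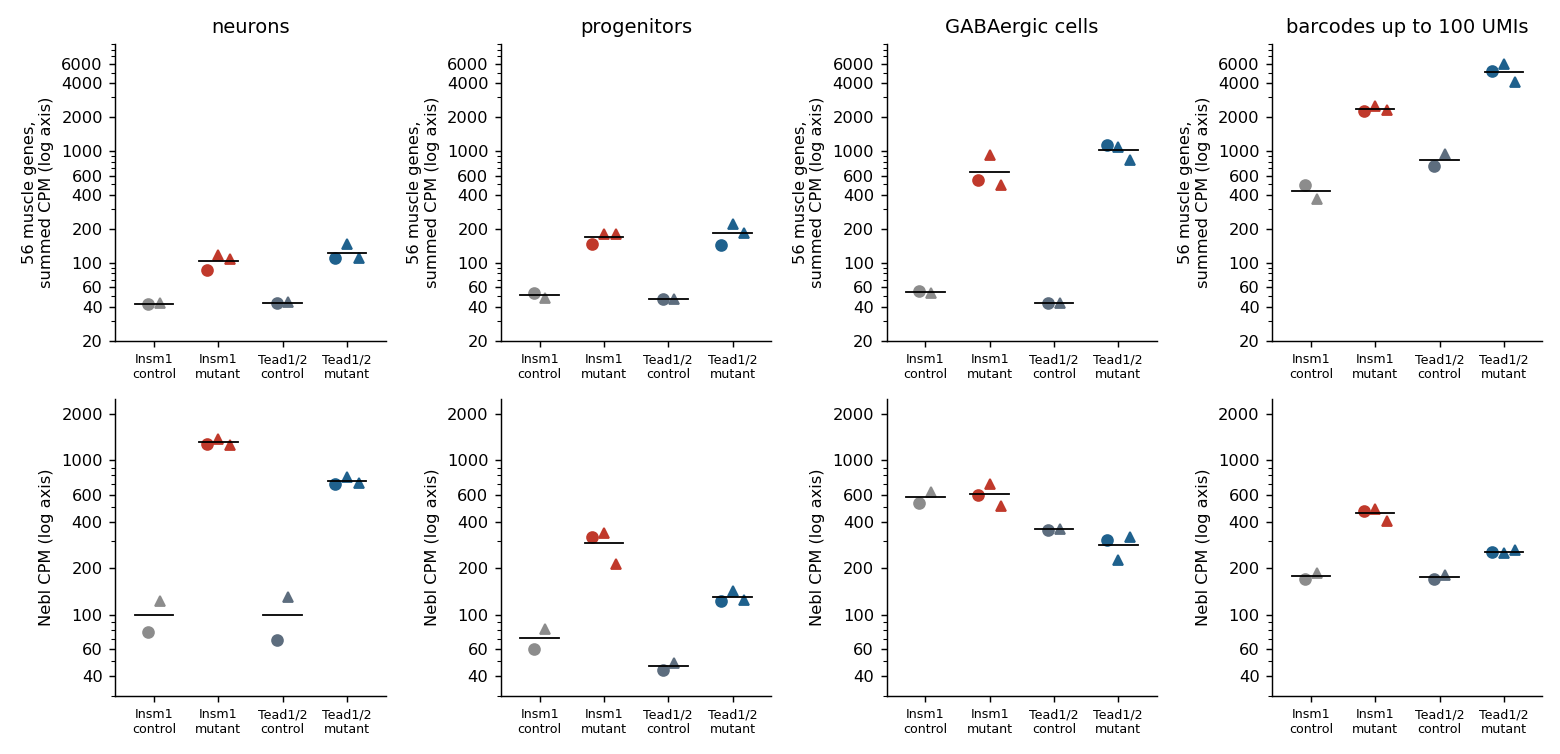
Summed CPM of 56 muscle list genes without Nebl and the Mef2 genes (top) and CPM of Nebl (bottom), on log axes, in neurons, cycling progenitors, GABAergic cells and barcodes of up to 100 UMIs, by group. Each point is 1 library and each line a group mean; the 56 genes are higher in mutants in all 4 kinds of barcode, while Nebl reaches 1267 to 1385 CPM in Insm1 mutant neurons and stays within 228 to 708 CPM in GABAergic cells.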

How the data were processed

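Single-cell RNA was read from 10 libraries of 1 deposited sample, as whole-number UMI counts per gene and barcode deposited by the authors with a cell table that names each library. Per the labels' protocols, cells were fixed, barcoded by split-pool (Parse Evercode WT v3) and sequenced, and their aligner is not given in the sources used here. Its gene table names GRCm39, so RefSeq promoters on GRCm38.p6 are shown with their own coordinates only.

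Counts of the 13365 neurons were summed per library (4500506 to 15832839 UMIs) and fitted over 10 libraries in 4 groups with edgeR 4.0.16 (R 4.3.3, limma 3.58.1) by TMM scaling, filterByExpr, glmQLFit and glmQLFTest, with Benjamini-Hochberg adjustment over 15077 genes and a threshold of 0.05. The 24 genes of the rule were left out of the test. CPM are on 2 scales. Those of genes given with an edgeR result or named by its calls use TMM-scaled totals, except those of Nebl. CPM of Nebl, rule genes, list sums and the neurons within or above the control range use plain totals. The class difference used 20 sums with the library as a block. DESeq2 1.42.0 was an alternative, and scanpy 1.11.5 ran Scrublet. Single values were compared by two-sided exact permutation over libraries (Python 3.11.15, numpy 2.4.6, pandas 2.3.3, scipy 1.17.1). On simulated counts, genes changed by a log2 of 1 were recovered at 100% in Insm1 (14673 genes), 98.85% in Tead1/2 (14700 genes) and 88.5% for the Insm1 class difference (14909 genes), and those changed by 2 at 100% in each of these 3. False calls were 12, 5 and 6. Only 87 genes changed by 1 and 113 by 2, all above a minimum level, with no dissection or sex effect. These rates therefore do not describe genes of few UMIs or the error in the real data.

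Groups come from library names, and 1 cerebellum gave each library, so p-values measure the spread between animals. Members and gene lists were chosen with earlier results of these data known. Genes named as largest changes were the 10 greatest rises and falls by log2 change per line among called genes with at least 10 CPM in the higher group and separate groups, without unnamed models, rule genes and sex-linked genes. For differences the 6 smallest p-values were taken, and list genes serve as examples. Replicate number 1 marks the libraries with all lobules. Deviations from the group mean correlated at -0.25 to 0.30 between libraries of the same number, with 0.30 for the mutants with all lobules. The numbers follow the dissection, and deviations of 2 controls mirror each other, so these values cannot decide whether numbers pair animals. The bulk samples of the series were not used here. Intervals and counts cover counting error only.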

Additional observations from a re-analysis of the deposited data

Results flagged for a closer look

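Between the lines, 27 genes had effects in the neurons that differed by the edgeR contrast of the 2 effects, and the 6 with the smallest p-values are given here. The Insm1 effect minus the Tead1/2 effect, on the log2 scale, was -2.14 for Trmt9b, -3.09 for Mgat4c and -2.15 for Itga9, each higher in the Tead1/2 mutants. It was 2.23 for Bmp5, 2.04 for Mfap4 and 1.78 for Tead2, which is the deleted gene in 1 of the lines.

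Between the 2 classes of granule cell, the effect in neurons minus that in cycling progenitors was drawn from an interaction term. In the Insm1 line it was 1.49 for Slc44a5, 1.32 for Ust, 1.00 for Trhde, 1.49 for Ralyl, 1.12 for Dip2b and 1.22 for Cdh8. In the Tead1/2 line it was 2.10 for Slc44a5, 2.19 for Ralyl, 3.07 for Gabrb2, 1.56 for Ust, 1.54 for Cdh8 and 1.12 for Trhde. Slc44a5, Ralyl, Ust, Trhde and Cdh8 thus met the rule in both lines, always with the more positive effect in the neurons.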

How the results depend on the processing

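Restricting the fit to neurons without a UMI of any muscle gene left 9 to 56 cells per mutant library and reduced the calls to 83 in Insm1, 84 in Tead1/2 and 0 for the difference between lines, with 4505 in place of 15077 genes tested. It selects on genes called higher in the mutants, Nebl and Mef2c among them. Under it Dcc (0.12), Cdh10 (-0.19) and Gli2 (0.00773) changed sign in Insm1, and Cntnap5a (0.60), Dcc (0.17), Nhlh1 (0.066), Nhlh2 (0.32) and Syt1 (-0.13) in Tead1/2 mutants, with adjusted p from 0.704 to 0.999 in edgeR, so none of these signs is a call. Neurons without a UMI of the 6 sarcomere genes, an alternative chosen after seeing the data, gave 1927, 1980 and 22 calls, and among the named gene effects 0 changed sign and 2 lost their call. Thinning each neuron to 1000 UMIs gave 1412, 1418 and 50 calls. The difference between lines gave 108 calls with DESeq2, 396 with no filter on low counts, 53 with the replicate block, 60 with a dissection term, 17 with a sex term, 11 without Scrublet doublets and 41 without the top 10% of doublet scores, the last chosen after seeing the data, and the cause was not tested. The replicate block gave 2221 calls in Insm1 and 2519 in Tead1/2, while it is not known whether the numbers pair animals. Leaving out 1 library at a time gave 1506 to 2715 calls in Insm1, with the lowest without Insm1 control 1, and 1656 to 2753 in Tead1/2, with 1656 and 1679 without Tead1/2 control 1 and 2. It gave 15 to 49 calls for the difference, 666 to 1335 for the Insm1 and 808 to 1574 for the Tead1/2 class difference. The share of neurons differed by -8.48 to -3.68 points in Insm1 and -14.4 to -9.33 in Tead1/2 under such omissions, and by -7.78 points in Insm1 with overlapping groups (exact permutation p 0.4) without Scrublet doublets. Scrublet marked 36.0% of cells in Insm1 control 1 and 0% in Insm1 control 2, so that overlap does not rest on an even removal. With 2 controls per line no exact permutation p could pass 0.05, and the depth of 628 neurons in Insm1 mutant 3 limits genes of low level.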

Other observations

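In neurons thinned to 1000 UMIs, a UMI of at least 1 of the 60 muscle list genes, Nebl, Mef2a, Mef2c and Mef2d included, was found in 37.7% of neurons of Insm1 controls and 71.0% in mutants, and in 34.9% and 65.0% in the Tead1/2 line. In cycling progenitors the same share was 40.5% and 55.6%, and 38.2% and 54.7%. In GABAergic cells it was 47.9% and 52.5% in the Insm1 line, where the groups overlapped (exact permutation p 0.4), and 41.3% and 50.4% in the Tead1/2 line. The summed level of the 60 genes in neurons was higher in mutants by 1401.7 CPM in Insm1 and 930.3 CPM in Tead1/2, and without those 4 genes by 60.9 and 78.1 CPM.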
